A study of Mus musculus with 21 samples.

Results

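Among the 36 antioxidant and glutathione genes that could be measured in dorsal skin of UV-irradiated hairless mice, 2 glutathione transferases, Gsto1 and Mgst2, had the highest fold changes at UV weeks 4, 6 and 8, and the glutathione synthesis genes Gclc and Gclm, the glutathione reductase Gsr, the mitochondrial peroxiredoxin Prdx3 and the metallothionein Mt2 were lower after 6 and 8 weeks of exposure than in the controls of week 1. Against the controls of week 8, Gclm, Gsr and Mt2 passed at UV week 8, whereas Gclc and Prdx3 did not. The calls of Gclm, Gsr and Mt2 against the controls of week 8 were lost without any of several single arrays and after quantile normalization. Those of Gclc and Prdx3 against the controls of week 1 were likewise lost without some single arrays. Nfe2l2, Keap1, Hmox1 and the superoxide and peroxide enzymes did not pass the test in any comparison of all 21 arrays when each gene was read at its brightest probe set. The genes are a list of 39 symbols chosen by function, with earlier results of these data known, and no measured value enters the rule. A gene was read from probe sets annotated to it alone, which gave 71 probe sets, 69 of them among the 40540 tested of 45101 on the array. Prdx1 was left out because each of its 5 probe sets is annotated jointly with another gene, and the probe annotation used here does not list Prdx5 and Prdx6. Of the 36 genes, 13 had 1 probe set and 23 had several. A gene with several was read at the one of highest mean, and all 36 of these passed the filter on low values.

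RNA came from dorsal skin of female albino hairless mice of the strain Hos:HR-1, bought at 6 weeks of age, on 21 Affymetrix Mouse Genome arrays in 7 groups of 3. Non-irradiated mice made up the groups control week 1 and control week 8, and the others were mice irradiated for 1, 2, 4, 6 or 8 weeks (UV week 1, 2, 4, 6 and 8). The lamps emitted between 275 and 380 nm with a peak at 310 to 315 nm, and a filter in front of them removed the shortest wavelengths (UVC). Mice were exposed 3 times a week, and the dose rose weekly by 1 minimal erythema dose (MED) up to 4 MED. The MED is the dose that just reddens skin, 100 mJ per cm2 here. Each UV group was compared with control week 1, the study's baseline, and UV week 8 also with control week 8, so the UV comparisons at weeks 1 to 8 share the same 3 control arrays. UV weeks 2, 4 and 6 had no controls of their own week, so exposure and the age of the mice cannot be told apart there. Values are log2 intensities and differences are log2 fold changes with the standard error (SE) of the linear model. A gene rose or fell where the limma p-value, adjusted over the 40540 tested probe sets by Benjamini-Hochberg, was at most 0.05. Arrays are named by their number in the labels. The whole skin was measured, so fewer cells of a type and less RNA per cell cannot be told apart.

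Nfe2l2 encodes Nrf2, the transcription factor that turns on many detoxifying genes under oxidative stress, and Keap1 encodes the cytoplasmic protein that holds Nrf2 down until oxidants or electrophiles modify it. Glutathione is a tripeptide made in cells from cysteine, which the transporter Slc7a11 brings in as cystine, by glutamate-cysteine ligase (Gclc and Gclm) and glutathione synthetase (Gss). Glutathione is used by peroxidases and transferases and is reduced again by Gsr, while thioredoxin and the peroxiredoxins form a parallel thiol system, and metallothioneins are small cysteine-rich proteins that bind zinc and copper. In skin these systems are known for handling the reactive oxygen species that UV light generates.

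The quality of the RNA and the makeup of the tissue varied between arrays and moved with some members. The log2 ratio of the 3' to the 5' beta-actin probe set, which rises as RNA breaks down, lay between 2.26 and 5.14 over the 21 arrays, and 8 arrays were above 4, namely array 12 of control week 1, arrays 112 and 114 of UV week 1, array 333 of UV week 4, arrays 441 and 445 of UV week 6, and arrays 552 and 555 of UV week 8. Leaving these out leaves 1 array each at UV weeks 1, 6 and 8. The same ratio for Gapdh, another control transcript, averaged 4.47 in control week 1, 5.68 in control week 8 and 4.79 in UV week 8. That of beta-actin averaged 3.22, 3.33 and 4.27 in these groups, so the ratios ordered control week 8 and UV week 8 differently. Every fit or omission by a ratio used beta-actin alone. Replicates of a group correlated between 0.962 and 0.996 over all 45101 probe sets of the array, tested or not. The keratinocyte and fibroblast markers that define skin were present, and no marker was at 0. At UV week 8 against control week 1, 6 of 6 hair shaft keratins fell, as did 5 of 8 skeletal muscle, 3 of 6 adipocyte, 3 of 7 fibroblast, 2 of 6 basal keratinocyte and 2 of 4 endothelial markers, while 1 of 5 wound keratinocyte, 1 of 6 sebocyte, 1 of 4 neutrophil and 1 of 2 erythroid markers rose. Of the suprabasal keratinocyte and T cell markers 1 of 7 and 1 of 5 fell, and none of 6 macrophage markers passed. The log2 of the summed hair shaft intensities was 12.77 to 13.62 in control week 1, 10.37 to 11.61 in control week 8 and 7.87 to 9.99 in UV week 8. That of the skeletal muscle markers was 16.13 to 16.41, 16.12 to 16.16 and 14.89 to 15.51 in the same groups. The adipocyte markers summed to 14.91 to 15.26, 14.61 to 14.80 and 14.21 to 14.81. The wound keratinocyte markers summed to 13.07 to 14.26, 13.34 to 13.54 and 14.16 to 15.18. The part of these shifts in the members' values was not tested, whereas fits with the beta-actin ratio are given beside the results they touch.

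No member passed the test at UV week 1 or UV week 2, where 0.0123% and 0.0617% of all probe sets were called. At unadjusted p under 0.05, 13 of the 36 members differed at UV week 1 (19.3% of all probe sets did) and 6 at UV week 2 (6.32%). At UV week 4, 2 members rose and none fell, against 1.13% of probe sets called in either direction. At UV week 6, 4 rose and 6 fell, or 27.8% of the members against 11.7% of all probe sets, and at UV week 8 3 rose and 5 fell, 22.2% against 12.1%. Against control week 8, UV week 8 had 2 higher and 3 lower members, 13.9% against 6.86%. Between the mean of the UV groups and the mean of both controls, 4 rose and 6 fell, where 14.9% of all probe sets were called. With a 2-fold minimum, and in the comparisons with control week 1 without probe sets that differed 1.5-fold between the controls, 3 members passed at UV week 6 (2% of all probe sets), 3 at UV week 8 (2.63%), 2 at UV week 8 against control week 8 (1.98%) and 2 for the mean (0.866%). The background includes dim probe sets, while the members are read at their brightest. UV arrays did not overlap control week 1 for 19.5%, 13.1% and 21.1% of all probe sets at UV weeks 1, 2 and 4. At UV weeks 6 and 8 the shares were 34.1% and 20.3%, and against control week 8 22.4%. Among the members the shares were 25%, 27.8%, 30.6%, 38.9%, 27.8% and 25% in the same order. The calls depended on single arrays. Without array 13 of control week 1, 4 members (11.1%) were called at UV week 6 and 4 at UV week 8, where 2.18% and 2.66% of all probe sets were, and 5 for the mean of the UV groups, where 5.98% were. Without array 551 of UV week 8, the array of that group with the lowest beta-actin ratio, 22 were called at UV week 8 against control week 1, 16 against control week 8 and 16 for the mean of the UV groups. Calls rose over the whole array in that fit, to 38.7%, 35.5% and 30.6% of all probe sets, beside 61.1%, 44.4% and 44.4% of the members. Without array 51 of control week 8, 2 were called at UV week 8 against control week 8, where 2.05% of all probe sets were.

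The median log2 fold change of the 36 members at UV week 8 against control week 1 was -0.26, beside 0.09 over all probe sets. At UV week 6 the medians were -0.31 and 0.08, and at UV week 2 they were 0.15 and 0.00. Adjusted for the beta-actin ratio, the members' median at UV week 8 was 0.00, beside 0.05 for all probe sets. The ratio averaged 3.22 (standard deviation 1.32) in control week 1 and 4.27 (1.30) in UV week 8. It and the exposure therefore cannot be fully told apart in that fit. A further quantile normalization of the arrays changed the split of the calls. There, 4 members rose and 2 fell at UV week 8, where 11% of all probe sets were called, and 4 rose and 1 fell at UV week 6, where 9.15% were. For the mean of the UV groups 5 rose and 3 fell (12.6% of all probe sets), and against control week 8 at UV week 8 2 rose and 0 fell (5.62%). Of the falls, those of Gclm and Mt2 at UV week 8 against control week 1 and of Mt2 at UV week 6 passed in that fit, and those against control week 8 were all lost.

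**Figure D1:**
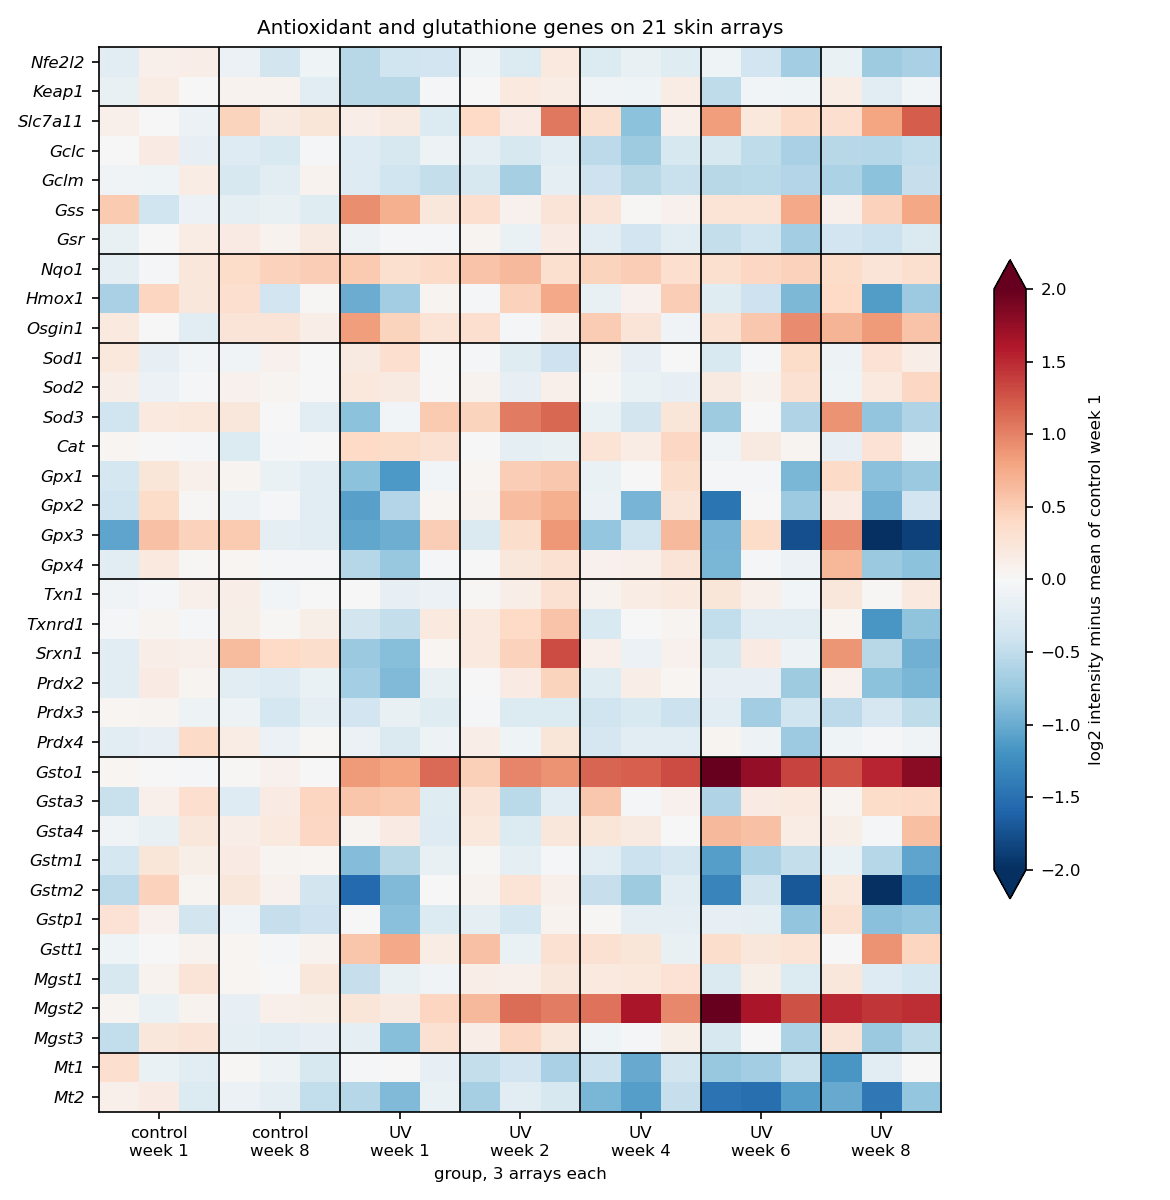
Each row is 1 of the 36 genes, ordered by role, and each column is 1 of the 21 arrays by group. Colour gives the log2 intensity minus the mean of the 3 arrays of control week 1, and the rows of Gsto1 and Mgst2 are above 0 in every UV array.

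The windows around the transcription starts of 5 genes are shown because their RNA carried the clearest changes (Gsto1, Mgst2, Mt2, Gclm) or because the gene is the partner of one that changed (Mt1). Sequences are from RefSeq, build GRCm38.p6, 250 bases before to 50 after the start, read 5' to 3' along the gene. Such windows were found for 33 of the 39 listed genes. Capitals mark the core of the antioxidant response element, where Nrf2 binds with small Maf proteins, searched as TGACNNNGC, and the core of the metal response element, bound by Mtf1, searched as TGCACNC and TGCGCNC, all on both strands. The windows lie at chr8:94178839-94179138 (Mt1), chr8:94172368-94172667 (Mt2), chr3:122245307-122245606 (Gclm), chr19:47854723-47855022 (Gsto1) and chr3:51660929-51661228 (Mgst2), each on the plus strand.
Mt1: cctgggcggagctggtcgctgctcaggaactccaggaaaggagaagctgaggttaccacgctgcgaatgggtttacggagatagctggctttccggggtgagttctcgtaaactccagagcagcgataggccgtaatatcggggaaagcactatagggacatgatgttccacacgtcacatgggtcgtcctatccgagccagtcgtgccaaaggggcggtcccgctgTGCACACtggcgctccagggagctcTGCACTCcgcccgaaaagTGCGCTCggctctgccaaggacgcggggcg
Mt2: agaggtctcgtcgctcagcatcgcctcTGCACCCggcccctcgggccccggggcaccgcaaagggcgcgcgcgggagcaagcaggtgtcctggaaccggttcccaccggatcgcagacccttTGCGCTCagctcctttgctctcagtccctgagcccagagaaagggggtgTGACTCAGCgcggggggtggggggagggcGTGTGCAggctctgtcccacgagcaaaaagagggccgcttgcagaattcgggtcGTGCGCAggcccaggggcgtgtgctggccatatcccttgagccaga
Gclm: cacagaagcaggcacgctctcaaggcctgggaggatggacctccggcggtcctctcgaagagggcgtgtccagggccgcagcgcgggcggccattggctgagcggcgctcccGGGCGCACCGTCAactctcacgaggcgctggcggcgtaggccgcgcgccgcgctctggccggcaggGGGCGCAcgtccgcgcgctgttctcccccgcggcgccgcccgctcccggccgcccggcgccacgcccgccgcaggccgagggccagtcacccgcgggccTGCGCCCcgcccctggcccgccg
Gsto1: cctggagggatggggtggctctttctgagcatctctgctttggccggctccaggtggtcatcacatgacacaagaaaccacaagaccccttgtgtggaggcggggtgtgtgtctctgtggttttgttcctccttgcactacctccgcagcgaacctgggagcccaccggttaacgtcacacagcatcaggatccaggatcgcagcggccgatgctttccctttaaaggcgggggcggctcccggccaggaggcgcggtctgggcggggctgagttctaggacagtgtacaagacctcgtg
Mgst2: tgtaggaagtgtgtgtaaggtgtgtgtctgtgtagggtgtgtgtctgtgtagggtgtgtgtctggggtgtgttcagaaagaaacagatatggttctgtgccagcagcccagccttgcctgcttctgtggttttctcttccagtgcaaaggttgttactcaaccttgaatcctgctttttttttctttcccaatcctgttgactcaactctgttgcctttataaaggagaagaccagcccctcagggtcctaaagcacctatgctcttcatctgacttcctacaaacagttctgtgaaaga

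The Mt1 window holds 3 metal response cores, which begin at bases 228, 253 and 271 counted from 1 at its 5' end. The Mt2 window holds 4, at bases 28, 123, 201 and 255, and an antioxidant response core at base 172. In Gclm an antioxidant response core at base 117, on the reverse strand, overlaps the metal response core at base 113, and other metal response cores begin at bases 179 and 278. The windows of Gsto1 and Mgst2 hold none of these letters. Over the member genes, TGACNNNGC was found for 9 (Nfe2l2, Gclm, Sod1, Txnrd1, Srxn1, Prdx1, Gsta3, Mgst1 and Mt2), or 22.5% of 40 windows, where 12.4% of 32851 mouse windows of the same length hold it. A metal response core was found for 7 members, in 8 of the 40 windows, and 25.7% of all windows hold one. These matches describe letters in a window and show neither binding nor its absence.

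The sensor pair, Nfe2l2 and Keap1, did not pass the test in any comparison of all arrays. Nfe2l2 was 10.68, 11.01 and 11.04 in control week 1, 10.80, 10.55 and 10.82 in control week 8, and 10.77, 10.20 and 10.27 in UV week 8. One UV week 8 array lay among the controls and the others lay below them. Against control week 1 the difference was -0.50 (SE 0.17, limma adjusted p = 0.0642, 95% interval -0.86 to -0.14), and it was -0.31 (SE 0.17, adjusted p = 0.244) against control week 8. Nfe2l2 passed against control week 1 without array 551 (-0.67, limma adjusted p = 0.00572) and without array 12 (-0.61, adjusted p = 0.0373). In those fits 38.7% and 14.8% of all probe sets were called. Within groups Nfe2l2 correlated with the beta-actin ratio at -0.505 over 21 arrays. Keap1 was 6.65, 6.95 and 6.79 in control week 1 and 6.95, 6.58 and 6.75 in UV week 8, so the groups overlapped. Its fold change was -0.04 (SE 0.16, adjusted p = 0.886, interval -0.37 to 0.30).

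Of the glutathione supply genes, 3 of 5 fell at UV weeks 6 and 8: Gclc, the catalytic subunit of glutamate-cysteine ligase, Gclm, its modifier subunit, and Gsr, which returns oxidized glutathione to its reduced form. Gclm was 7.68, 7.66 and 7.90 in control week 1, 7.43, 7.54 and 7.81 in control week 8, 7.20, 7.22 and 7.16 in UV week 6, and 7.12, 6.93 and 7.29 in UV week 8. The UV arrays of weeks 6 and 8 all lay below both sets of controls, and the arrays of UV weeks 1, 2 and 4 lay below control week 1 as well. The log2 fold change of Gclm was -0.56 (SE 0.14, limma adjusted p = 0.018) at UV week 6 and -0.63 (SE 0.14, adjusted p = 0.00855) at UV week 8, a 1.55-fold fall. Against control week 8 it was -0.48 (SE 0.14, adjusted p = 0.0448). The Gclm call at UV week 8 against control week 1 passed without any 1 array, with adjusted p up to 0.0491. The call against control week 8 was lost without array 51, 53, 55, 552 or 555 (adjusted p up to 0.2), and the one at UV week 6 without array 13, 16 or 445 (up to 0.0712). Quantile normalization ended the calls at UV week 6 (adjusted p = 0.112) and against control week 8 (0.174), and the UV week 8 call was lost with the compared groups alone (0.187) and without the 8 arrays above a beta-actin ratio of 4 (-0.66, adjusted p = 0.145). A second Gclm probe set, 1418627_at, fell by 1.22 at UV week 8 (SE 0.36, adjusted p = 0.0353).

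Gclc was 9.38, 9.56 and 9.22 in control week 1, 9.13, 9.08 and 9.36 in control week 8, and 8.83, 8.82 and 8.89 in UV week 8. All 3 UV week 8 arrays were below the 6 control arrays. Its log2 fold change was -0.49 (SE 0.13, limma adjusted p = 0.0215) at UV week 6, -0.54 (SE 0.13, adjusted p = 0.0139) at UV week 8, and -0.34 (SE 0.13, adjusted p = 0.103) against control week 8, where it did not pass. The call at UV week 8 was lost without array 13 or 552 (adjusted p up to 0.0921), and that at UV week 6 without array 13 or 445 (up to 0.124). Adjusted for the beta-actin ratio, the values were -0.51 for Gclc and -0.64 for Gclm at UV week 8. With quantile normalization the Gclc calls at UV weeks 6 and 8 were lost (adjusted p = 0.111 and 0.0661), as were both with the compared groups alone (0.0953 and 0.212) and without the 8 arrays above a ratio of 4 (0.105 and 0.155).

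Gsr was 7.20, 7.34 and 7.50 in control week 1, 7.51, 7.42 and 7.53 in control week 8, 6.88, 6.95 and 6.66 in UV week 6, and 6.97, 6.93 and 7.05 in UV week 8. The arrays of both UV groups were below all 6 controls, whereas those of UV weeks 1 and 2 overlapped them. Gsr fell by 0.52 (SE 0.11, limma adjusted p = 0.0101) at UV week 6, by 0.37 (SE 0.11, adjusted p = 0.0431) at UV week 8, and by 0.51 (SE 0.11, adjusted p = 0.0169) against control week 8. The UV week 8 call against control week 1 was lost without array 13, 16, 552 or 555 (adjusted p up to 0.157) and after adjustment for the beta-actin ratio (-0.32, adjusted p = 0.0914). The one against control week 8 was lost without array 51, 55, 552 or 555 (up to 0.0802), while the UV week 6 call held without any 1 array. Quantile normalization ended the Gsr calls at UV week 6 (adjusted p = 0.0583), at UV week 8 (0.235) and against control week 8 (0.0756), and so did the fit to the compared groups alone (0.0801, 0.302 and 0.182).

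The other supply genes did not fall. Gss, which adds glycine in the last step of glutathione synthesis, was higher in the mean of the UV groups than in the mean of both controls (0.47, SE 0.13, limma adjusted p = 0.024). No single week passed, with 0.44 (SE 0.22, adjusted p = 0.175) at UV week 8, and its other probe set, 1448273_at, gave -0.07 there. The Gss call was lost without array 13, 16, 51 or 55 (adjusted p up to 0.107). Within groups, Gss values correlated with the beta-actin ratio at 0.824 over the 21 arrays, a description of arrays that share RNA and hybridization. Slc7a11, the light chain of the cystine transporter, was 5.70, 5.60 and 5.48 in control week 1, 6.04, 5.77 and 5.83 in control week 8, and 5.93, 6.38 and 6.79 in UV week 8. Its UV week 8 arrays all lay above control week 1 and overlapped control week 8. This was a difference of 0.78 (SE 0.28, adjusted p = 0.07, interval 0.20 to 1.36), and against control week 8 it was 0.49 (SE 0.28, adjusted p = 0.251). Without array 551 the Slc7a11 difference from control week 1 passed (0.998, limma adjusted p = 0.0130), in a fit that called 38.7% of all probe sets.

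**Figure D2:**
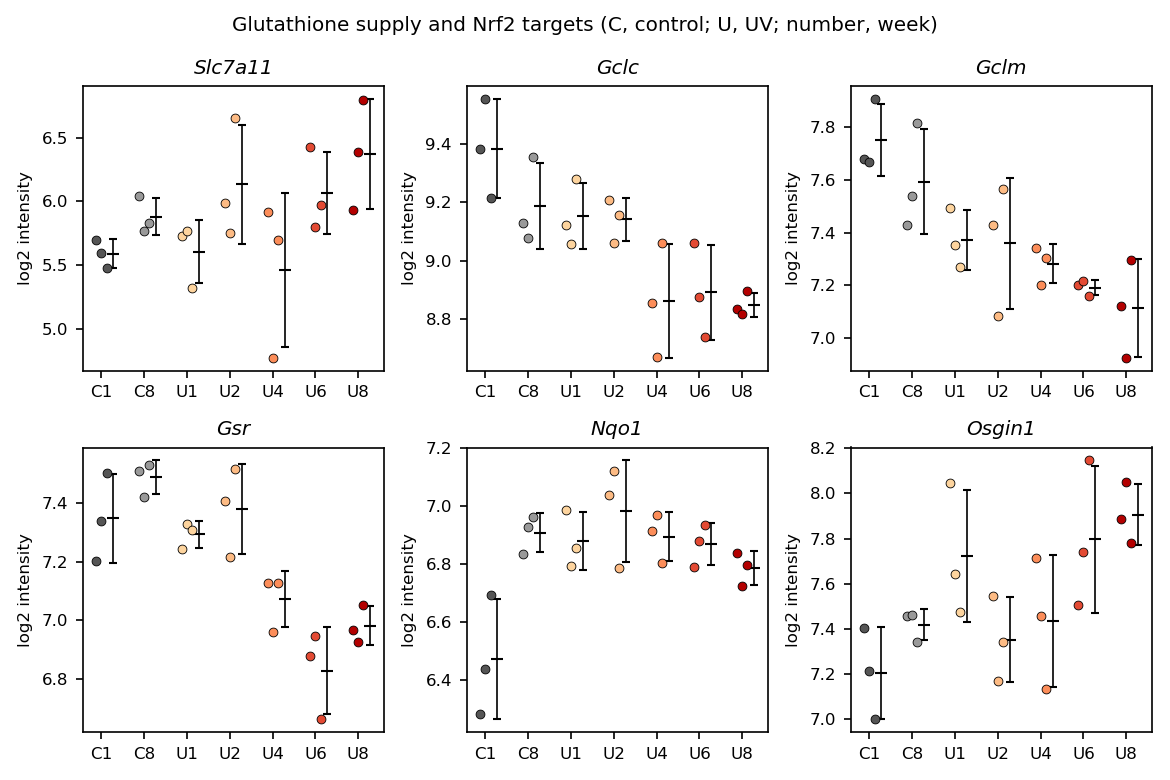
Log2 intensity of 6 genes in the 7 groups, where each point is 1 array and the bar beside each group is the mean with 1 standard deviation (n = 3). Gclc, Gclm and Gsr are lower in UV week 8 than in both controls in every array. The Nqo1 arrays of control week 8 lie above those of control week 1, a difference that did not pass the test.

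Of the 3 Nrf2 target enzymes read here apart from the glutathione genes, Osgin1 rose and Nqo1 and Hmox1 did not pass at UV week 8. Osgin1, an oxidative stress-induced growth inhibitor, was 7.40, 7.21 and 7.0 in control week 1, 7.45, 7.46 and 7.34 in control week 8, and 7.89, 8.05 and 7.78 in UV week 8. The UV week 8 arrays were above all controls. Its log2 fold change was 0.59 (SE 0.18, limma adjusted p = 0.0444) at UV week 6, 0.70 (SE 0.18, adjusted p = 0.0215) at UV week 8 and 0.49 (SE 0.18, adjusted p = 0.102) against control week 8. The UV week 8 call was lost without array 13, 16, 552 or 555 (adjusted p up to 0.0954) and the UV week 6 call without array 13, 16, 443 or 445 (up to 0.195). Adjusted for the beta-actin ratio the UV week 8 value was 0.57 (adjusted p = 0.0368), and with the compared groups alone both calls were lost (adjusted p = 0.107 at UV week 6 and 0.164 at UV week 8).

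Nqo1, a quinone reductase and a standard readout of Nrf2, depended on which control was used. It was 6.28, 6.44 and 6.69 in control week 1, 6.83, 6.93 and 6.96 in control week 8, and 6.84, 6.72 and 6.79 in UV week 8. Every array of control week 8 and of the 5 UV groups lay above control week 1. Nqo1 rose by 0.40 (SE 0.12, limma adjusted p = 0.0384) at UV week 6, and its difference was 0.31 (SE 0.12, adjusted p = 0.084) at UV week 8 and -0.12 (SE 0.12, adjusted p = 0.506) at UV week 8 against control week 8. The non-irradiated groups differed by 0.44 (SE 0.12, adjusted p = 0.341), which did not pass. The UV week 6 call was lost without array 12, 13, 441, 443 or 445 (adjusted p up to 0.136), while with quantile normalization Nqo1 also passed at UV week 8 (0.43, adjusted p = 0.0326).

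Hmox1, the heme oxygenase that responds to many oxidants, was 7.29, 8.37 and 8.17 in control week 1, 8.28, 7.56 and 7.96 in control week 8, and 8.33, 6.82 and 7.22 in UV week 8. The groups overlapped. Hmox1 differed by -0.48 (SE 0.36, limma adjusted p = 0.366, interval -1.25 to 0.28), and adjusted for the beta-actin ratio it was -0.09. It rested on single arrays, with -0.92 (adjusted p = 0.0404) without array 551, -0.81 without array 12, -0.27 without array 13 and -0.16 without array 552. The fit without array 551 called 38.7% of all probe sets. Within groups Hmox1 followed the beta-actin ratio with a correlation of -0.767 over 21 arrays, and in UV week 8 the array with the ratio below 4 was the highest.

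None of the 8 superoxide and peroxide enzymes rose or fell at any week when read at its brightest probe set. These are the superoxide dismutases of cytosol, mitochondria and extracellular space (Sod1, Sod2 and Sod3), catalase (Cat), and the glutathione peroxidases Gpx1, Gpx2, Gpx3 and Gpx4. At UV week 8 against control week 1 the log2 fold changes were 0.11 for Sod1 (interval -0.24 to 0.45), 0.18 for Sod2 (-0.09 to 0.45) and 0.05 for Cat (-0.20 to 0.31). Those of Gpx1, Gpx2, Gpx3 and Gpx4 were -0.40, -0.39, -0.98 and -0.30, each with an interval that included 0. Sod3 was 5.51, 6.11 and 6.12 in control week 1, 6.36, 6.95 and 7.06 in UV week 2, above the controls, and 6.82, 5.13 and 5.31 in UV week 8. Its differences of 0.88 (SE 0.38) at UV week 2 and -0.16 (SE 0.38) at UV week 8 did not pass. Gpx3, the secreted peroxidase, was 9.16, 10.81 and 10.69 in control week 1, 10.75, 10.02 and 9.99 in control week 8, and 11.16, 8.21 and 8.35 in UV week 8. The UV week 8 arrays were split, and the high one was the array with a low beta-actin ratio. Within groups Gpx3 correlated with the ratio at -0.886, Sod3 at -0.847 and Gpx1 at -0.835, and after adjustment for the ratio the UV week 8 values were -0.10 for Gpx3 and -0.03 for Gpx1.

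Other probe sets of these genes gave different values. Sod1 at 1451124_at fell by 0.69 at UV week 8 (SE 0.19, limma adjusted p = 0.0248), and by 0.64 against control week 8 (SE 0.19, adjusted p = 0.0454). Cat at 1416430_at fell by 1.25 at UV week 8 (SE 0.32, adjusted p = 0.021) and did not pass against control week 8 (-0.93, adjusted p = 0.0824). Sod2 at 1417193_at was 10.90 to 10.95 in control week 1 and lower in UV week 8, at 10.45 to 10.75, but did not pass. Gpx4 at 1451695_a_at averaged 9.25 and 8.01 in these groups, whose arrays overlapped. Other dimmer probe sets had higher means in UV week 8, such as Sod1 at 1435304_at (8.13 and 8.57) and Sod3 at 1417634_at (4.24 and 4.54). Where these probe sets lie in the transcripts was not analysed here. Over the members' 33 tested probe sets other than the brightest, 2 rose and 4 fell at UV week 8, where 5.39% of all probe sets were higher and 6.73% lower.

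In the thioredoxin system Prdx3, the peroxiredoxin of mitochondria, fell, and the other 5 genes did not pass. Prdx3 was 9.56, 9.57 and 9.42 in control week 1, 9.42, 9.16 and 9.33 in control week 8, and 9.0, 9.19 and 9.01 in UV week 8. The UV week 8 arrays were below control week 1 and overlapped control week 8. Its fold change was -0.44 (SE 0.13, limma adjusted p = 0.0346) at UV week 6, -0.45 (SE 0.13, adjusted p = 0.0289) at UV week 8, and -0.24 (SE 0.13, adjusted p = 0.226) against control week 8. The UV week 8 call was lost without array 12, 13 or 555 (adjusted p up to 0.121), and that of UV week 6 without array 12, 13, 16, 443 or 445 (up to 0.133). Quantile normalization ended the Prdx3 calls at UV week 6 (0.256) and UV week 8 (0.213), as did the compared groups alone (0.129 and 0.245).

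Txnrd1, the cytosolic thioredoxin reductase, was 8.88, 8.96 and 8.88 in control week 1, 9.11, 9.31 and 9.48 in UV week 2, and 8.95, 7.74 and 8.10 in UV week 8. Its values lay above the controls at UV week 2 and overlapped them at UV week 8, where the log2 fold change was -0.64 (SE 0.23, limma adjusted p = 0.0681). Srxn1, which repairs overoxidized peroxiredoxins, was 7.32, 7.67 and 7.64 in control week 1, 8.17, 7.94 and 7.90 in control week 8, and 8.43, 6.99 and 6.58 in UV week 8. Its fold change was -0.21 (SE 0.35, adjusted p = 0.7, interval -0.95 to 0.53), with -0.76 (adjusted p = 0.0386) without array 551 and -0.04 without array 552. The fit without array 551 called 38.7% of all probe sets. A second Srxn1 probe set, 1451680_at, rose by 0.46 (SE 0.12, adjusted p = 0.0238). Txn1, thioredoxin itself, was at 0.14, and its probe set 1456734_at rose by 0.75 (SE 0.20, adjusted p = 0.0254). Prdx2 and Prdx4, the peroxiredoxins of cytosol and endoplasmic reticulum, were at -0.55 and -0.07. The other Prdx4 probe sets had higher means in UV week 8 than in control week 1, and none passed. They went from 8.72 to 9.14 at 1416166_a_at, from 5.80 to 6.36 at 1435731_x_at and from 3.54 to 4.00 at 1431269_at.

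Of the 10 glutathione transferases, Gsto1 and Mgst2 rose at UV weeks 4, 6 and 8 and Gstm1 fell at UV week 6. Gsto1, an omega-class transferase that reduces dehydroascorbate, is in a list that the study chose on these same samples, so its rise is not independent evidence for that list. Gsto1 was 10.99, 10.97 and 10.93 in control week 1 and 10.99, 11.04 and 10.97 in control week 8. In the UV groups it was 11.81, 11.75 and 12.09 at week 1, 11.44, 11.94 and 11.86 at week 2, and 12.12, 12.16 and 12.27 at week 4. It was 12.98, 12.72 and 12.32 at week 6 and 12.23, 12.48 and 12.77 at week 8. At this brightest probe set, each of the 15 UV arrays was above each of the 6 control arrays. The control groups differed by 0.04 (SE 0.17).

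The log2 fold change of Gsto1 was 0.92 (SE 0.17, limma adjusted p = 0.0709) at UV week 1 and 0.78 (SE 0.17, adjusted p = 0.108) at UV week 2, which did not pass. It was 1.22 (adjusted p = 0.00092) at UV week 4, 1.71 (adjusted p = 3.93e-05, 3.28-fold) at UV week 6 and 1.53 (adjusted p = 7.36e-05, 2.89-fold) at UV week 8, each with an SE of 0.17. Against control week 8 it was 1.49 (SE 0.17, adjusted p = 0.000179). These calls passed without any 1 array, with adjusted p up to 0.00772. The second Gsto1 probe set, 1416531_at, rose by 1.06 at UV week 6 (SE 0.28, adjusted p = 0.0248) and by 1.03 against control week 8 (adjusted p = 0.0381), and gave 0.79 at UV week 8 against control week 1 (adjusted p = 0.0702). Its arrays of UV week 1, at 9.96 to 10.70, overlapped those of control week 1, at 9.71 to 10.41. Its arrays of UV week 2, at 10.61 to 11.39, lay above control week 1.

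Mgst2, a membrane-bound transferase that can also make leukotriene C4, was 8.59, 8.40 and 8.61 in control week 1 and 8.36, 8.64 and 8.66 in control week 8. It was 8.77, 8.72 and 8.97 at UV week 1, 9.18, 9.65 and 9.56 at UV week 2, and 9.62, 10.17 and 9.49 at UV week 4. It was 10.60, 10.17 and 9.81 at UV week 6 and 10.05, 9.96 and 10.00 at UV week 8. The arrays of every UV week were above all controls, with those of week 1 nearest to them. The log2 fold change was 0.29 (SE 0.19, limma adjusted p = 0.387) at UV week 1, 0.93 (SE 0.19, adjusted p = 0.092) at UV week 2, 1.23 (SE 0.19, adjusted p = 0.00281) at UV week 4, 1.66 (SE 0.19, adjusted p = 0.000145, 3.16-fold) at UV week 6 and 1.47 (SE 0.19, adjusted p = 0.00027, 2.78-fold) at UV week 8. Against control week 8 it was 1.45 (SE 0.19, adjusted p = 0.000632). The calls passed without any 1 array, with adjusted p up to 0.0242.

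Within groups the beta-actin ratio correlated with Gsto1 at -0.162 and with Mgst2 at -0.134 over 21 arrays, and after adjustment for the ratio the UV week 8 values were 1.57 and 1.51. Without the 8 arrays above a ratio of 4 they were 1.28 (limma adjusted p = 0.0109) and 1.54 (adjusted p = 0.00619), where the single UV week 8 array left is taken to vary as much as arrays of other groups do.

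**Figure D3:**
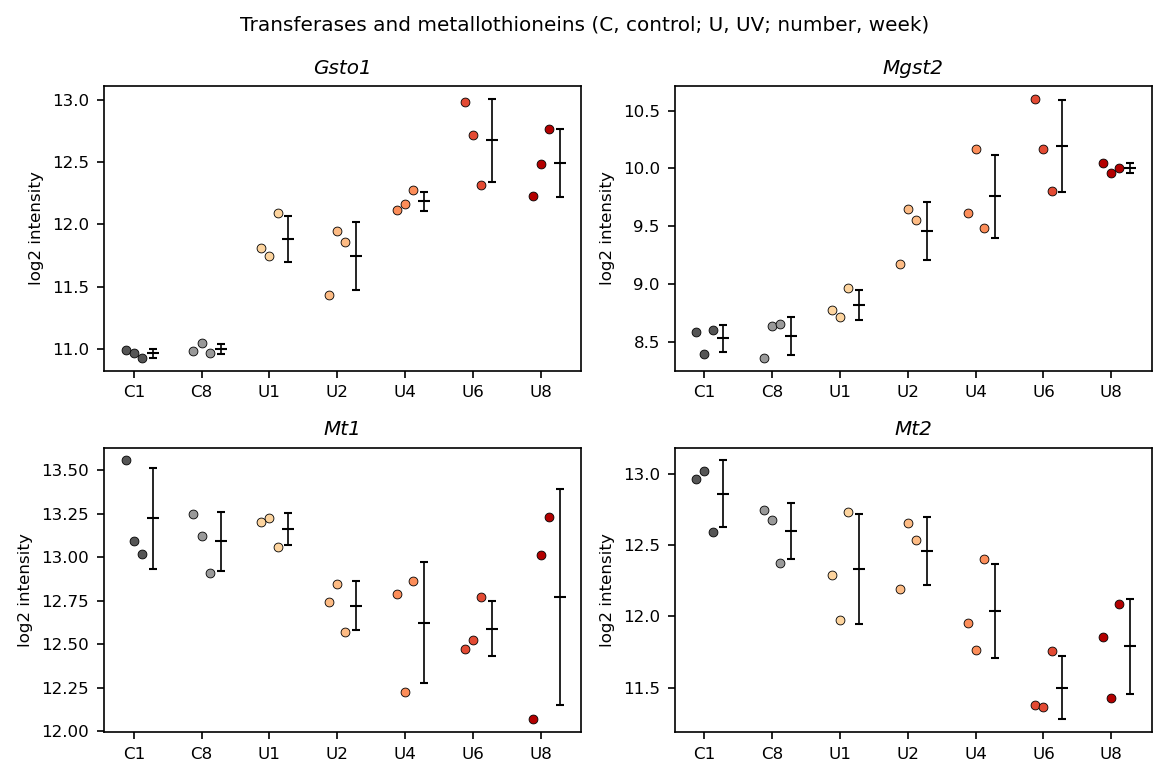
Log2 intensity of Gsto1, Mgst2, Mt1 and Mt2 in the 7 groups, with 1 point per array and the mean with 1 standard deviation (n = 3). At its brightest probe set Gsto1 lies between 10.93 and 11.04 in the 6 controls and at 11.44 or above in the 15 UV arrays. Mt2 is lowest at UV week 6.

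Gstm1, a mu-class transferase, was 8.14, 8.74 and 8.61 in control week 1 and 7.40, 7.87 and 8.01 in UV week 6. Its UV week 6 arrays were below the controls, with a log2 fold change of -0.74 (SE 0.22, limma adjusted p = 0.0377). The call was lost without array 13, 16, 441 or 443 (adjusted p up to 0.175), with quantile normalization (0.0854) and with the compared groups alone (0.0877). At UV week 8 it was -0.59 (SE 0.22, adjusted p = 0.0817), while its probe set 1448330_at fell by 0.63 (SE 0.20, adjusted p = 0.0449). The mu-class genes are similar in sequence, so a probe set can take up signal of a relative. Gstm2, of the same class, was 6.50, 7.50 and 7.09 in control week 1 and 7.25, 4.50 and 5.73 in UV week 8. Its fold change was -1.20 (SE 0.50, adjusted p = 0.113), and within groups it correlated with the beta-actin ratio at -0.858, with a value of -0.59 after adjustment for it.

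The other transferases did not pass at any week when read at the brightest probe set. At UV week 8 the alpha-class Gsta3 and Gsta4 were at 0.27 and 0.23, the pi-class Gstp1 at -0.44, the theta-class Gstt1 at 0.45, and the microsomal Mgst1 and Mgst3 at -0.12 and -0.33. Mgst1 is also among the sebocyte markers, of which 1 of 6 measured rose and none fell. The 3 microsomal transferases thus had values of -0.12, 1.47 and -0.33, and only the one for Mgst2 passed.

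Of the metallothioneins, Mt2 fell and Mt1 did not pass. Mt2 was 12.97, 13.03 and 12.59 in control week 1 and 12.75, 12.68 and 12.38 in control week 8. It was 11.38, 11.36 and 11.76 in UV week 6 and 11.86, 11.43 and 12.09 in UV week 8, below every control array in both. The log2 fold change was -0.82 (SE 0.22, limma adjusted p = 0.082) at UV week 4, -1.36 (SE 0.22, adjusted p = 0.00186, a 2.57-fold fall) at UV week 6 and -1.07 (SE 0.22, adjusted p = 0.00578, a 2.1-fold fall) at UV week 8. Against control week 8 it was -0.81 (SE 0.22, adjusted p = 0.0352). The calls against control week 1 passed without any 1 array (adjusted p up to 0.0405), while that against control week 8 was lost without array 51, 53, 55, 552 or 555 (up to 0.177) and with quantile normalization (0.0556). With the compared groups alone the UV week 8 call was lost against control week 1 (adjusted p = 0.12) and control week 8 (0.172). Adjusted for the ratio the UV week 8 value was -1.02, and without the 8 arrays above a ratio of 4 it was -0.96 (adjusted p = 0.0807).

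Mt1 was 13.56, 13.10 and 13.02 in control week 1, 13.25, 13.12 and 12.91 in control week 8, 12.47, 12.52 and 12.77 in UV week 6, and 12.07, 13.02 and 13.23 in UV week 8. The UV week 6 arrays were below the controls and those of UV week 8 overlapped them. The log2 fold change was -0.63 (SE 0.24, limma adjusted p = 0.0795) at UV week 6 and -0.45 (SE 0.24, adjusted p = 0.193) at UV week 8, and -0.32 (SE 0.24, adjusted p = 0.371) against control week 8. A dimmer Mt1 probe set, 1451612_at, fell by 1.27 at UV week 8 against control week 8 (SE 0.25, adjusted p = 0.00965) and gave -0.38 against control week 1 (SE 0.25, adjusted p = 0.305). Without the 8 arrays above a beta-actin ratio of 4, Mt1 was at -0.99 at UV week 8 (adjusted p = 0.017), a value that rests on array 551, the 1 array of UV week 8 left in that fit and the lowest of its group. With all others kept, the value was -0.10 without array 551, -0.29 without array 12 and -0.68 without array 555. Whether the falls of Mt2 and Mt1 differ was not tested.

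The metal handling genes outside the list included 3 that fell at UV week 8 among 6 measured, with a median log2 fold change of -0.58, and 1 of 6 fell against control week 8. The shares of all probe sets that fell were 6.73% and 4.3%. Slc30a1, which exports zinc from the cell, fell by 0.88 (SE 0.19, limma adjusted p = 0.00719), and by 0.77 against control week 8 (SE 0.19, adjusted p = 0.0231). The zinc importers Slc39a10 and Slc39a14 fell by 1.14 (SE 0.19, adjusted p = 0.00163) and 0.97 (SE 0.28, adjusted p = 0.0312) against control week 1, and did not pass against control week 8 (adjusted p = 0.0541 and 0.0638). Mtf1, the factor that switches on metallothioneins when zinc is high, named here for that role, was at -0.01 (SE 0.14, adjusted p = 0.956).

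Over the pathway list of other Nrf2, glutathione, thioredoxin, NADPH and metal genes, 68 of 72 were measured, and 5 rose and 8 fell at UV week 8 against control week 1, where 5.39% of all probe sets rose and 6.73% fell. At UV week 6, 6 rose and 5 fell (5.43% and 6.3% of all probe sets), and at UV week 8 against control week 8, 1 rose and 4 fell (2.56% and 4.3%). The Nrf2 partners had 0 higher and 1 lower of 9, and that one was Maff, a small Maf protein (-0.59, SE 0.17, limma adjusted p = 0.0342, and -0.88, adjusted p = 0.00921, against control week 8). None of 5 genes of NADPH supply passed, and 2 of 13 other Nrf2 targets fell. Among 25 other glutathione genes 4 rose and none fell, and against control week 8 1 rose. Ggt6, of the gamma-glutamyl transferase family that breaks down glutathione outside the cell, rose by 0.85 (SE 0.18, adjusted p = 0.00647). Txnrd3, a reductase for thioredoxin and glutathione, rose by 0.94 (SE 0.17, adjusted p = 0.00259), the only one of 10 other thioredoxin genes to rise, while 2 fell. Neither of these passed against control week 8 (adjusted p = 0.133 and 0.292). Slc3a2, the heavy chain that pairs with Slc7a11 and was picked out here after its values were seen, fell by 0.83 at UV week 8 (SE 0.19, adjusted p = 0.0124) and did not pass against control week 8 (adjusted p = 0.12).

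**Figure D4:**
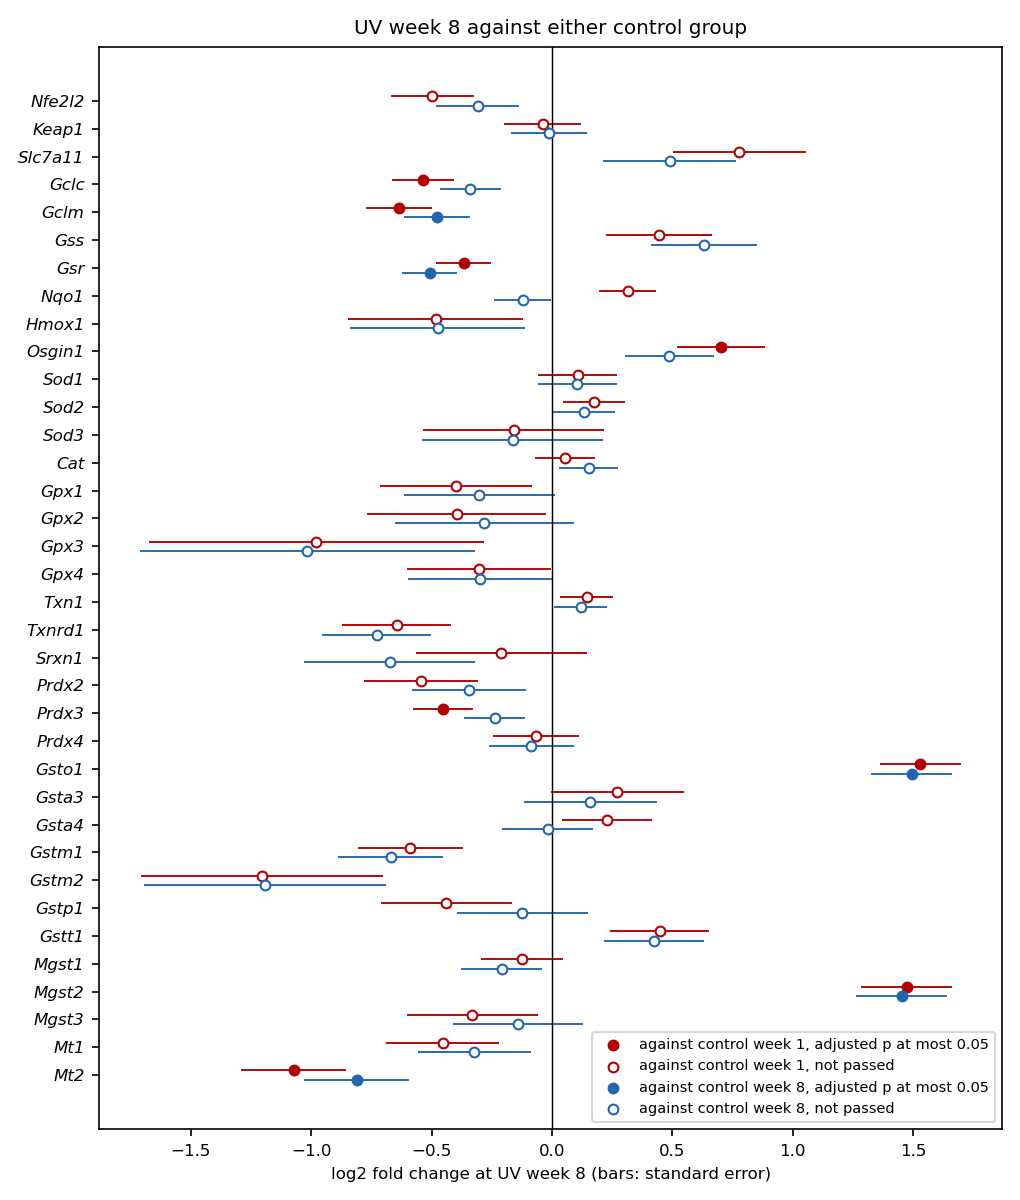
Log2 fold change of the 36 genes at UV week 8, 1 row per gene ordered by role, against control week 1 (red) and control week 8 (blue), with bars of 1 standard error. Filled points passed the test, and Gsto1, Mgst2, Gclm, Gsr and Mt2 are filled for both controls, of which Gclm, Gsr and Mt2 did not pass against control week 8 after quantile normalization.

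No member passed the test between the 2 control groups (0.0592% of all probe sets called), and 1 member had an unadjusted p under 0.05 (5.01% of all probe sets). The arrays of control weeks 1 and 8 did not overlap for 4 of 36 members, where 12.8% of all probe sets did not. The UV effect at week 8, against control week 8, was also set against that at week 1, against control week 1, and no member passed this test (0.00247% of all probe sets called), with 4 members at an unadjusted p under 0.05 (4.16%). The largest such difference was that of Mgst2 (1.16, SE 0.27, limma adjusted p = 0.572). Beside it stood 0.57 (SE 0.24) for Gsto1, -0.53 (SE 0.17) for Nqo1 and -0.45 (SE 0.16) for Gsr.

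Adjusted for the beta-actin ratio, 3 members rose and 4 fell at UV week 8, where 9.6% of all probe sets were called, and 4 rose and 7 fell at UV week 6, where 14.6% were. Read at the brightest probe set, Gsto1 passed at UV week 1 (0.95, limma adjusted p = 0.0376) and Mgst2 at UV week 2 (0.92, adjusted p = 0.0469) in that fit. Mt1 passed there at UV week 6 (-0.74, adjusted p = 0.0224). The call of Gsr was lost at UV week 8.

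**Figure D5:**
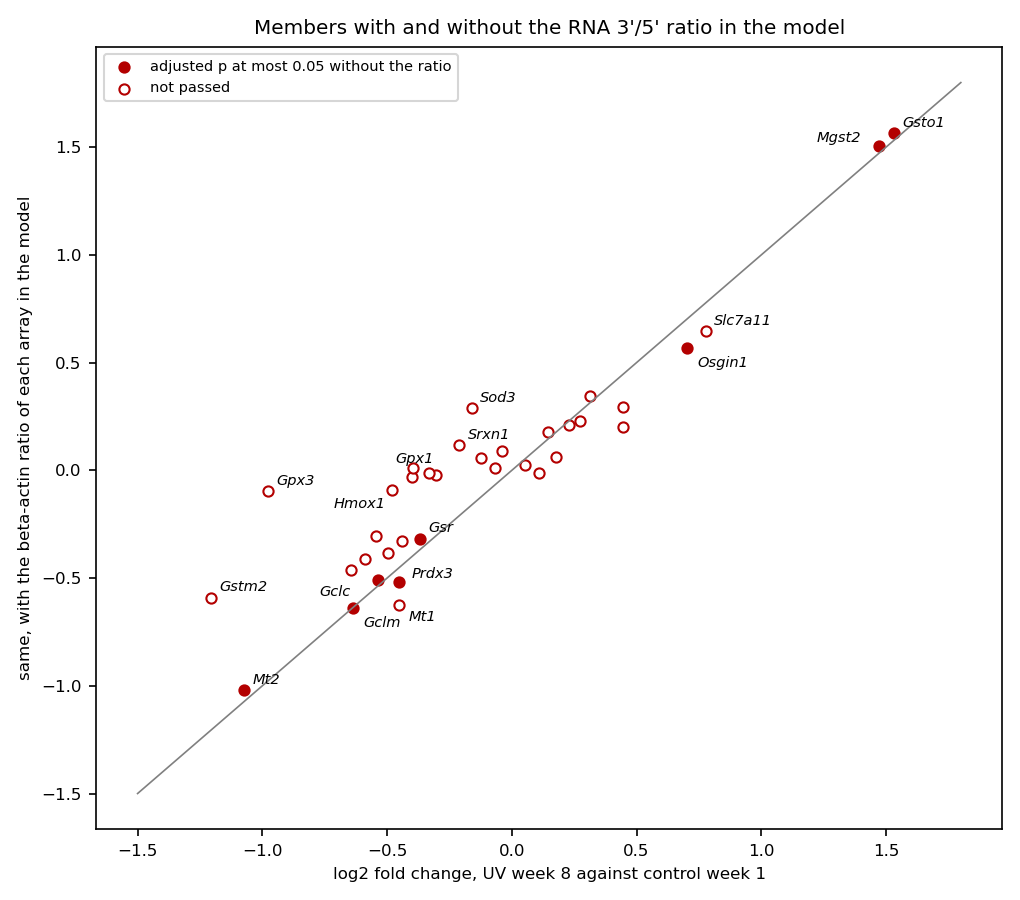
Log2 fold change of the 36 genes at UV week 8 against control week 1, without (horizontal) and with (vertical) adjustment for the 3'/5' ratio of beta-actin. Filled points passed without the ratio and lie near the line of equal values, while Gpx3 moves from -0.98 to -0.10 and Gstm2 from -1.20 to -0.59.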

How the data were processed

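The deposited values are linear probe set intensities from 21 Affymetrix Mouse Genome arrays, which the authors background corrected, summarized and normalized. Their Methods give Expression Console and its Microarray Suite 5 preprocessor, and the submitters' processing notes give RMA, so the exact procedure is not settled. Array medians were 30.1 to 33.3. The 3 arrays per group limit the precision.

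Values were set to at least 1 and taken to log2. The 64 control probe sets and those under the 20th percentile of every array were left out. Probe sets with 1 gene symbol numbered 32317, with several 853 and with none 7370. All 21 arrays entered a model of group means (limma 3.58.1, R 4.3.3, lmFit and eBayes, 14 residual degrees of freedom), and p-values were adjusted by the method of Benjamini and Hochberg across 40540 probe sets. An exact permutation test of 3 arrays against 3 cannot give a p below 0.1 and was not used. The design text speaks of 3 animals per group.

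Full statistics were given for members that passed in any comparison and for a fixed set of others, and of the other pathway genes for the 6 with the largest changes among those that passed at UV week 8 against either control, with Mtf1 and Slc3a2 added after the values were seen. Members and lists were chosen with earlier results of these data known. Alternatives were a fit with no filter on intensity, quantile normalization, the compared groups alone, the mean over a gene's probe sets, adjustment for the beta-actin ratio, omission of the 8 arrays with a ratio above 4, a 2-fold threshold, and omission of each array. Python 3.11.15 with matplotlib 3.10.9 drew the figures.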

Additional observations from a re-analysis of the deposited data

How the results depend on the processing

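Without an intensity filter no call on a named gene changed. Fitted to the compared groups alone, 3 members passed for UV week 6, 2 for UV week 8 and 2 for UV week 8 against control week 8. The share of all probe sets called was not computed for that fit. Of 32 gene results followed there, some of which had not passed with all arrays, 16 lost their call. Mt2 (limma adjusted p = 0.12) and Gclm (limma adjusted p = 0.187) at UV week 8 were among them. The calls of Gsto1 and Mgst2 from UV week 4 on passed under every alternative fit and without any 1 array. With quantile normalization 1 member passed for UV week 1 (0.0123% of all probe sets), 5 for UV week 6 (9.15%) and 2 for UV week 8 against control week 8 (5.62%). With the beta-actin ratio as a covariate the counts were 1 for UV week 1 (0.195% of all probe sets), 1 for UV week 2 (0.217%) and 4 for UV week 4 (2.78%). Without the arrays of ratio above 4 the count was 2 for UV week 2, where the share of all probe sets was not computed. That fit leaves 1 array each at UV weeks 6 and 8, so no count is given for them. At a 2-fold minimum the counts were 3 for UV week 6 (2% of all probe sets) and 3 for UV week 8 (2.63%). They were 2 for UV week 8 against control week 8 (1.98%) and 2 for the mean of the UV groups (0.866%). Leaving out 1 array gave 0 to 2 members for UV week 1, 0 to 2 for UV week 2, 2 to 4 for UV week 4, 4 to 9 for UV week 6, 4 to 22 for UV week 8, 2 to 16 for UV week 8 against control week 8 and 5 to 16 for the mean. Over the same fits 0% to 2.67% of all probe sets were called for UV week 1, 0.0074% to 0.133% for UV week 2 and 0.461% to 1.43% for UV week 4. For UV weeks 6 and 8 the shares ran from 2.18% to 13.7% and from 2.66% to 38.7%. Against control week 8 they ran from 0.725% to 35.5%, and for the mean from 5.98% to 30.6%. The causes were not tested. Values that changed sign at UV week 8, none of which passed, were those of Keap1 with quantile normalization (0.0863), the mean of its probe sets (0.0145), the covariate (0.0921), without the arrays above 4 (0.0780) and without 1 array (-0.13 to 0.0499), of Srxn1 with the mean of its probe sets (0.163), the covariate (0.116), without the arrays above 4 (0.773) and without 1 array (-0.76 to 0.17), and of Hmox1 without the arrays above 4 (0.0691). No paired analysis was run, because the paper allocated separate mice to each group and the labels link no arrays between groups. The dimmest members, such as Gsta3 and Slc7a11, are nearest to background, where array signal limits what can be seen.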
